A study of Mus musculus with 6 samples.

Results

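Isolated regions were stretches of captured mouse genome that stood alone among the regions measured. A region was counted as isolated when it lay on an autosome, had methylation calls in all 6 samples, and had no other listed region within 10000 bases of either edge. This rule used position and coverage and no methylation value, and it picked 12130 of the 177443 autosomal regions with calls in all 6 samples, which is 6.84%. All 209687 listed regions served as possible neighbours, so isolation refers to what was listed. The sequence between the regions was not analysed here. The regions set beside the isolated ones were the 131954 with a neighbour within 1000 bases, called close regions below.

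DNA methylation at CpG sites is copied at each cell division by the maintenance methyltransferase DNMT1, set anew by DNMT3A and DNMT3B, and oxidised by TET enzymes. Most scattered CpGs of the mammalian genome are highly methylated in adult tissue, whereas CpG-dense islands at promoters are mostly free of it. Colorectal tumours are known for lower methylation over CpG-poor sequence together with higher methylation at a share of CpG islands. Capture panels concentrate on islands, their shores and regulatory sequence, and a region with no listed neighbour lies away from the clusters of captured sequence.

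The 6 samples were scraped colon epithelium of C57BL/6 mice aged 18 weeks, with 2 samples in each of 3 groups. The AOM/DSS plus curcumin group received the carcinogen azoxymethane, the colitis-inducing agent dextran sulfate sodium and curcumin, a plant polyphenol. The AOM/DSS group received both agents without curcumin, and the control group neither agent. Before scraping, the proximal part of the colon was taken off along with right-sided tumours, per the labels' protocol. Whether tumours elsewhere were left in the scraped mucosa is not stated there. Nothing in the labels says that the samples of a group came from separate mice or pools. The p-values below therefore measure at most the spread between these samples. Fisher's exact test, which sums the calls of a group, does not measure that spread. Epithelial purity could not be checked with marker genes in these methylation tables. In such bulk samples a change in the mix of cells cannot be told apart from a change within the cells.

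The isolated regions were small and poor in CpGs. Their median was 5 CpGs, with quartiles of 3 and 7, against 8 CpGs with quartiles of 4 and 15 in close regions. The smallest size in the files, 3 CpGs, made up 28.0% of isolated and 14.7% of close regions. Regions of more than 20 CpGs were 160 of the isolated ones, or 1.32%, against 15.2% of close regions. The median length was 140 bases in isolated and 211 bases in close regions, and the median spacing between CpGs was 36 and 28 bases. Isolated regions therefore differed from close ones in CpG number as well as in surroundings, and comparisons below are also given at equal CpG number.

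The nearest listed region lay a median of 19428 bases away, with quartiles of 13237 and 35743 bases, against 133 bases in close regions. The shares varied along the genome, from 4.33% of the measured regions of chromosome 11 to 9.47% of those of chromosome 14. Of the 16085 autosomal regions that met the distance rule, 3955 or 24.6% were blank in at least 1 sample and dropped out. The same loss among close regions was 10.9%. Depth per CpG was not lower in the members that remained, with a median of 16.9 calls per CpG and sample in isolated and 14.6 in close regions. The files' minimum of 20 calls per region asks for more calls per CpG where CpGs are few. The part of this filter in these depths was not tested. Having fewer CpGs, isolated regions nevertheless rested on fewer calls, with a median of 76 to 93 calls per region in the 6 samples against 106 to 131 in close regions. The absolute gap between the replicates of a group averaged 5.87 points in AOM/DSS plus curcumin, 6.05 in AOM/DSS and 6.08 in control samples for isolated regions. For close regions these gaps were 4.21, 4.39 and 4.56 points. The part of depth and of methylation level in these gaps was not tested. Points here are percentage points of methylation level, the share of methylated calls among all calls of a region.

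Isolated regions were much more methylated than close ones in every sample. Their mean level was 59.31 and 59.07% in the AOM/DSS plus curcumin samples, 57.60 and 58.26% in the AOM/DSS samples, and 59.83 and 59.99% in the control samples. Close regions averaged 35.2 and 35.0% with AOM/DSS plus curcumin, 34.7 and 34.9% with AOM/DSS, and 35.6 and 35.3% in control samples. The 33359 regions between these distances, 1000 to 10000 bases from a neighbour, averaged 57.2 ± 0.149% in AOM/DSS plus curcumin, 56.3 ± 0.303% in AOM/DSS and 57.9 ± 0.183% in control samples, much nearer to the isolated regions. Within each sample the isolated mean stood 22.9 to 24.7 points above the close mean. The difference averaged 23.9 ± 0.657 points (SD, n = 6) and was positive in 6 of 6 samples, with a two-sided exact permutation p of 0.03125 over the signs of the 6 differences, the smallest that 6 samples can give. The same sets of regions, unlike in CpG number, were measured in each sample, so this p says only that the sign was shared.

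The levels were spread over the whole scale. By their mean over the 6 samples, 12.6% of isolated regions were below 10% methylated, 30.3% lay at 70 to 90%, and 18.0% at 90% or more. Among close regions 43.8% were below 10%, 16.5% lay at 70 to 90%, and 9.39% at 90% or more. At equal CpG number the gap between the sets remained. Among regions of 3 CpGs the isolated ones were 7.89 points higher, among those of 5 CpGs 11.3 points, and among those of 9 to 12 CpGs 23.5 points, as means over the 6 samples. With 13 to 20 CpGs isolated regions averaged 57.2 ± 0.04% in AOM/DSS plus curcumin, 56.7 ± 0.32% in AOM/DSS and 57.6 ± 0.37% in control samples. Close regions of that size averaged 17.6 ± 0.10%, 17.7 ± 0.09% and 17.7 ± 0.20% in the same groups (SD, n = 2 each). Weighting the close regions to the CpG numbers of the isolated ones reduced the overall difference to 13.7 points. The 160 members of 21 or more CpGs had the lowest mean of the CpG classes, at 41.1% in AOM/DSS plus curcumin, 40.9% in AOM/DSS and 41.3% in control samples, against 5.47, 5.61 and 5.44% in close regions.

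**Figure D1:**
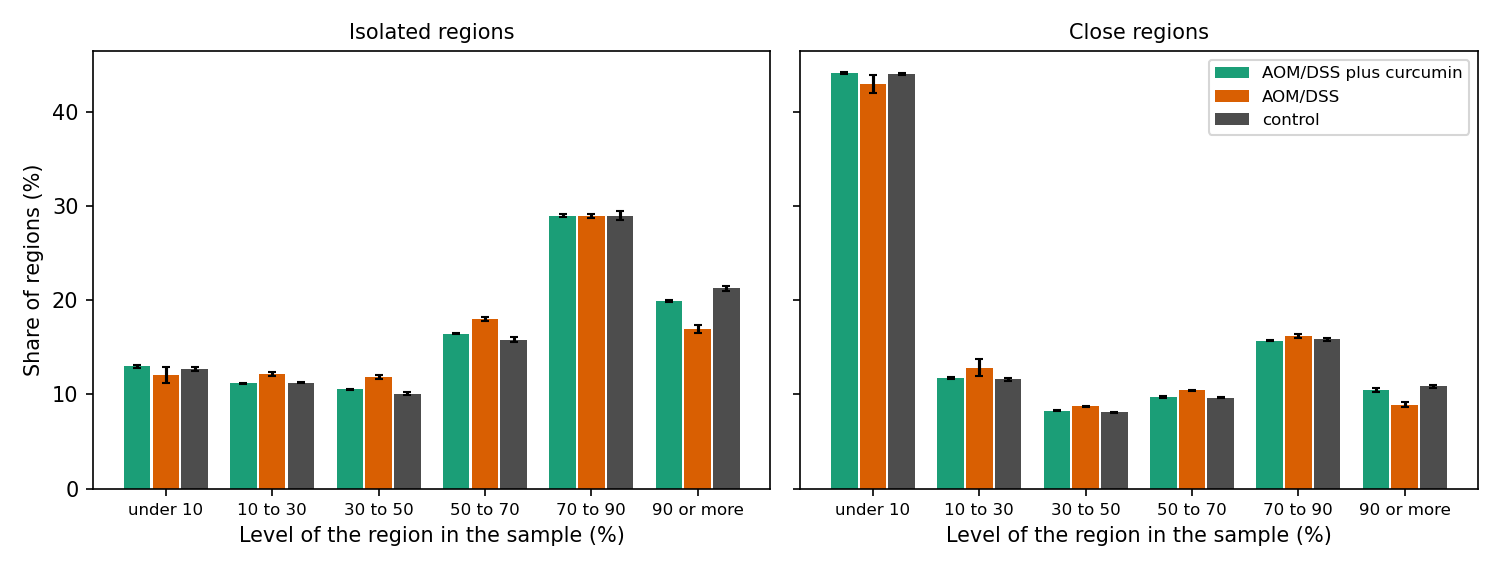
Share of regions (vertical axis, percent) in 6 classes of methylation level (horizontal axis, percent) for isolated regions on the left and close regions on the right. Bars are means of the 2 samples of a group and whiskers are the SD. Close regions pile up below 10%, with 43.0 to 44.1% of them there in the 3 groups, while isolated regions peak at 70 to 90% with 28.9 to 29.0%; at 90% or more the AOM/DSS bar of isolated regions is the shortest, at 16.9%.

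The first comparison asked how the methylome of the mucosa differed after AOM/DSS. The mean level of isolated regions was lower in AOM/DSS samples, at 57.9 ± 0.467%, against 59.9 ± 0.111% in control samples (SD, n = 2 each). The difference was -1.98 points, and both AOM/DSS samples lay below both control samples. The median level over the isolated regions was 66.3% in AOM/DSS and 70.1% in control samples. Close regions had a mean difference of -0.631 points, also without overlap, but their median level was 18.7% in AOM/DSS and 18.3% in control samples, a difference of 0.445 points in the other direction, with overlap. The exact permutation test of 2 against 2 samples has a smallest two-sided p of 0.333, so these means carry no test. On each of the 19 autosomes isolated regions were lower with AOM/DSS and the groups did not overlap, by -2.58 points on chromosome 9 to -1.55 points on chromosome 16. These chromosomes come from the same 4 samples and do not count as replicates.

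**Figure D2:**
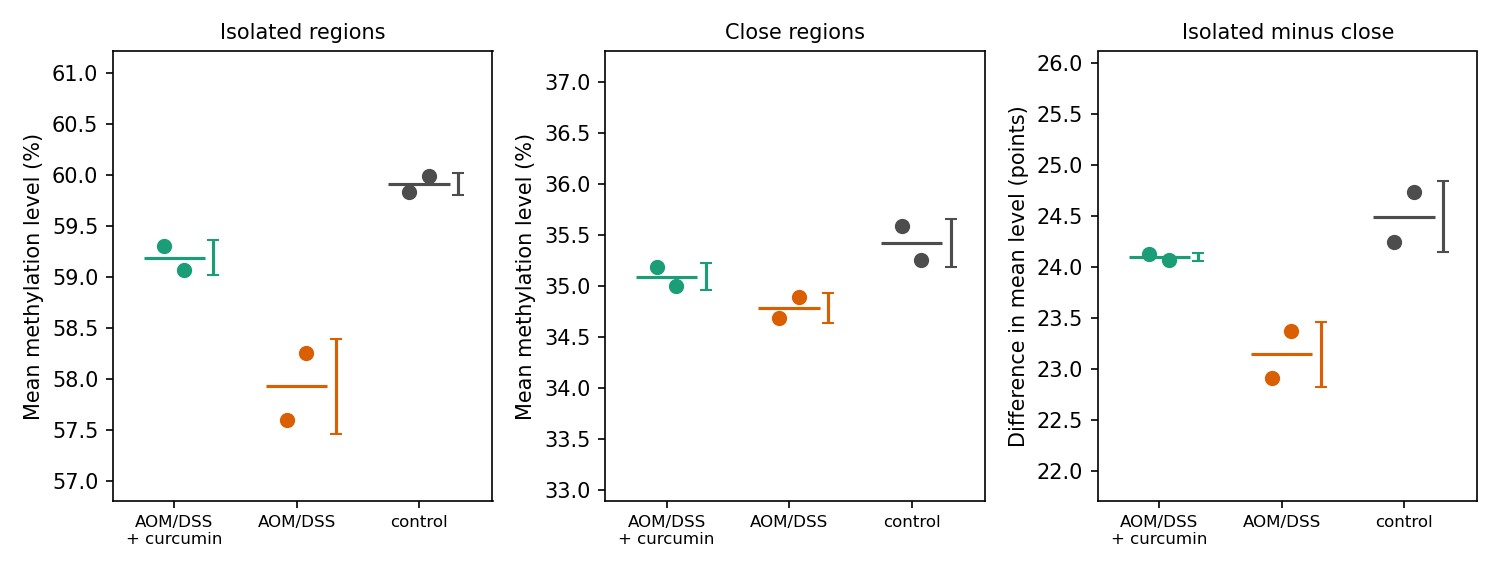
Mean methylation level of isolated regions (left, percent), of close regions (middle, percent) and their difference within each sample (right, points), one dot per sample, in AOM/DSS plus curcumin, AOM/DSS and control samples. Lines mark the mean of 2 samples, whiskers its SD, and each panel spans the same number of points without starting at 0. Both AOM/DSS samples sit lowest in all 3 panels, and the isolated regions are the more widely separated, at 57.60 and 58.26% against 59.83 and 59.99% in control samples.

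The difference between isolated and close regions within a sample was 22.9 and 23.4 points in AOM/DSS samples, against 24.2 and 24.7 points in control samples. It was thus smaller with AOM/DSS by 1.35 points, again without overlap. This contrast depended on which close regions isolated ones were set against. With close regions weighted to the CpG numbers of the isolated ones, the difference between the groups was -1.01 points and the samples did not overlap. With weights for both CpG number and level class, chosen after seeing the data, it was -0.579 points and the samples overlapped.

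Within isolated regions the difference depended on the level. It was largest at intermediate to high methylation. Members at 50 to 70% averaged 58.8 and 59.2% in AOM/DSS samples, against 62.4 and 62.9% in control samples, a difference of -3.62 points over 2048 regions. Those at 70 to 90% averaged 79.0 and 79.5% in AOM/DSS samples, against 82.6 and 82.5% in control samples, a difference of -3.30 points over 3679 regions. In both classes the AOM/DSS samples lay below the control samples. Members at 30 to 50% differed by -1.97 points and those at 90% or more by -1.22 points, also without overlap. The sparsely methylated classes overlapped between the groups. The 1525 below 10% averaged 4.495 and 5.655% in AOM/DSS samples, against 4.24 and 4.78% in control samples, a difference of 0.562 points, and the class of 10 to 30% differed by -0.035 points. Close regions differed by -2.36 points at 50 to 70% and by -2.39 points at 70 to 90%. Set against close regions within the same sample and class, isolated regions were lower with AOM/DSS by a further -1.26 points at 50 to 70% and -0.912 points at 70 to 90%, without overlap, and overlapped in the other 4 classes.

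**Figure D3:**
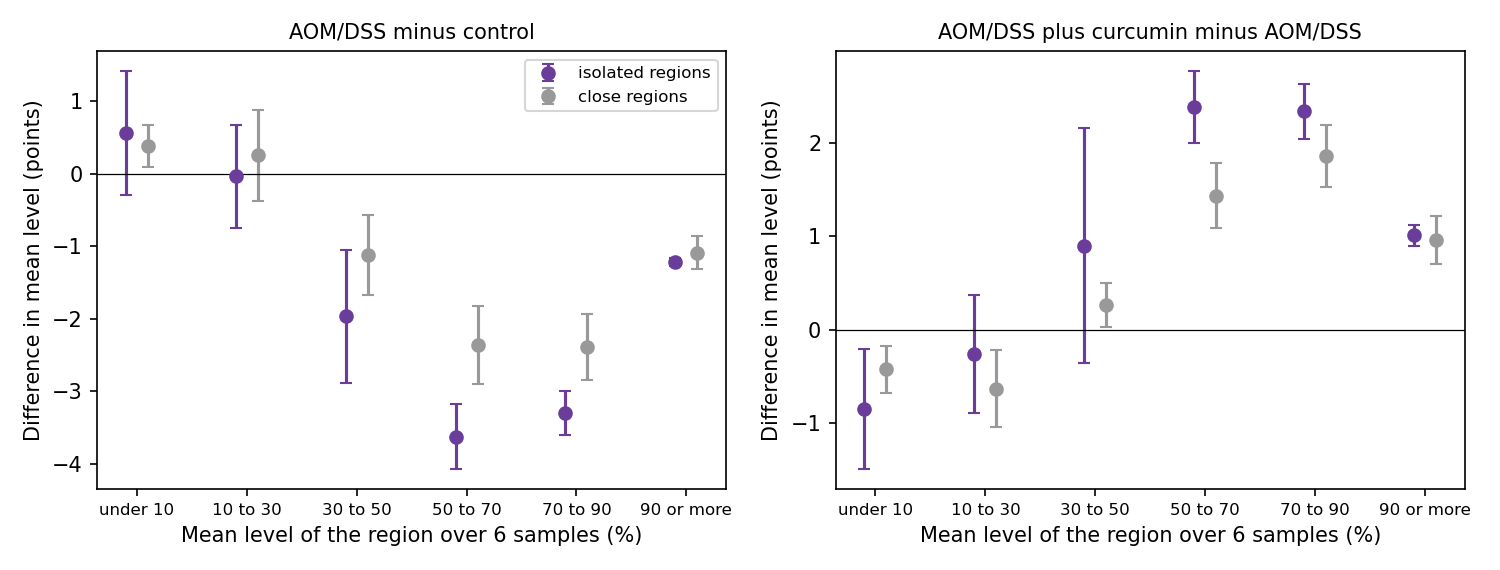
Difference in mean level between groups (vertical axis, points) for isolated and close regions, by the region's mean level over the 6 samples (horizontal axis, percent); AOM/DSS minus control on the left and AOM/DSS plus curcumin minus AOM/DSS on the right. Dots are differences of group means, and whiskers run from the lowest to the highest difference between single samples. Isolated regions reach -3.62 and -3.30 points on the left at 50 to 70% and 70 to 90%, where close regions reach -2.36 and -2.39 points.

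Fewer isolated regions were nearly fully methylated in AOM/DSS samples. Regions at 90% or more were 16.6 and 17.3% of isolated regions in AOM/DSS samples, against 21.4 and 21.1% in control samples. The other regions had the same direction: 17.3 and 17.1% of those 1000 to 10000 bases from a neighbour in AOM/DSS samples, against 21.3 and 20.5% in control samples, and 9.08 and 8.75% of close regions, against 10.98 and 10.8%. Members at 50 to 70% in a sample were 18.0 ± 0.216% with AOM/DSS, against 15.8 ± 0.233% in control samples. The share below 10% was 12.1 ± 0.845% with AOM/DSS and 12.7 ± 0.204% in control samples, a gap smaller than the AOM/DSS spread. By CpG number the difference was -2.44 points in members of 3 CpGs, -2.40 points with 4, -2.10 points with 5, -1.69 points with 6, -1.47 points with 7 to 8, -1.33 points with 9 to 12 and -0.911 points with 13 to 20, all without overlap. In the 160 members of 21 or more CpGs it was -0.341 points, with overlap. Close regions had a like order, from -1.32 points with 3 CpGs to 0.001 points with 13 to 20, with overlap, and 0.178 points with 21 or more.

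Among isolated regions the difference was larger with distance from the nearest listed region. The 6262 members with a neighbour at 10000 to 20000 bases averaged 57.1 and 57.8% in AOM/DSS samples, against 59.1 and 59.3% in control samples, a difference of -1.77 points. The 3901 at 20000 to 50000 bases differed by -1.98 points and the 1239 at 50000 to 100000 bases by -2.42 points. The 728 members more than 100000 bases from any listed region averaged 60.5 and 61.4% in AOM/DSS samples, against 63.6 and 64.5% in control samples, a difference of -3.10 points. None of these 4 classes overlapped between groups. Short of the limit, the difference was -0.026 points, with overlap, for regions with a neighbour within 100 bases, -0.847 points at 100 to 1000 bases, and between -1.56 and -1.60 points in the 3 classes from 1000 to 10000 bases. The most isolated members were also the more methylated. When every distance class was weighted to the CpG numbers and level classes of all isolated regions, the 4 isolated classes still ran from -1.84 and -1.99 to -2.16 and -2.63 points. At less than 10000 bases the weighted differences lay between -1.41 and -1.79 points, though regions within 100 bases of another covered only 91.4% of the weights. Within the level class of 70 to 90% alone, the isolated classes differed by -2.93, -3.52, -3.75 and -4.14 points in order of distance. At 50 to 70% they differed by -3.30, -3.72, -4.05 and -4.84 points. Other level classes did not keep this order. The differences were -1.83, -1.62, -2.86 and -3.45 points at 30 to 50%, and -1.15, -1.26, -1.12 and -1.82 points at 90% or more. At 10 to 30% they were -0.262, 0.322, -0.010 and -0.085 points, and below 10% they were positive, all with overlap. The distance, level and CpG classes were drawn after the data were known, and no test was made of the trend.

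**Figure D4:**
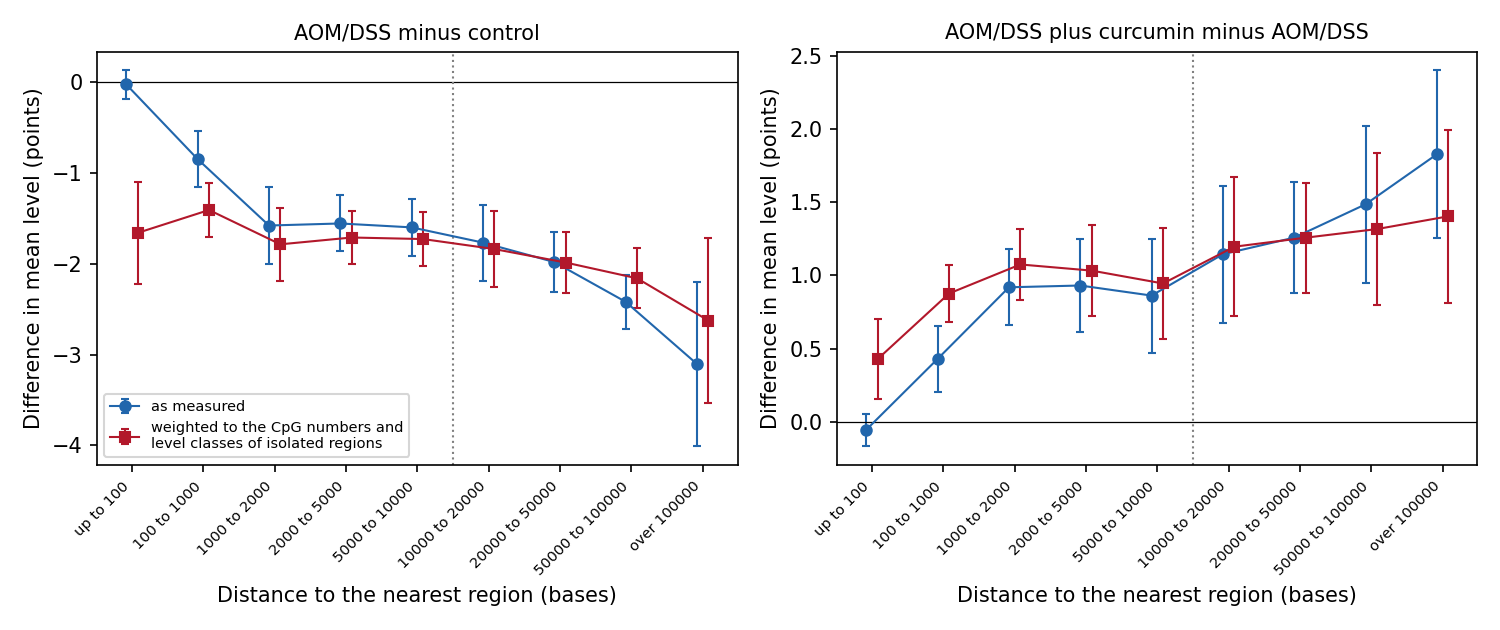
Difference in mean level between groups (vertical axis, points) by distance to the nearest listed region (horizontal axis, bases), AOM/DSS minus control on the left and AOM/DSS plus curcumin minus AOM/DSS on the right; isolated regions lie right of the dotted line. Circles are differences as measured, squares are weighted to the CpG numbers and level classes of isolated regions, and whiskers run from the lowest to the highest difference between single samples. On the left the measured differences go from -0.026 points within 100 bases to -3.10 points beyond 100000 bases, and the weighted ones to -2.63 points.

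Single isolated regions rarely passed a test. In edgeR's quasi-likelihood test over all 179922 regions with calls in 6 samples, a region was called when its Benjamini-Hochberg adjusted p was under 0.05 and the group means lay 10 points or more apart. In AOM/DSS minus control 1 isolated region was called, against 7 regions in all, or 0.00389%. At an unadjusted p under 0.05 alone there were 806 isolated regions or 6.64%, near the 6.34% of all tested. Split by direction, 613 or 5.05% were lower in AOM/DSS samples, against 3.62% of all autosomal regions. The higher ones were 193 or 1.59%, against 2.72%. Fisher's exact test, at an adjusted p under 0.05 and 10 points, called 348 isolated regions or 2.87%, against 2% of all tested. At an unadjusted edgeR p under 0.05 and 10 points, 510 or 4.204% of isolated regions stood out. This compares with 2.82% of all regions tested, 2.45% of close regions and 3.81% of the regions between the close and isolated distances. Of these 510 regions, 80 were higher in AOM/DSS samples, 0.660% of the isolated regions against 0.723% of all tested, and 430 were lower, 3.54% against 2.1%. Of the regions between, 0.809% were higher and 3.00% lower by this rule, so the excess of lower ones was not particular to isolated regions. Isolated regions also had the larger replicate gaps given above, whose part in these shares was not tested. Among members at 50 to 70%, 124 of 2048 or 6.05% were lower by this rule, against 3.90% of close regions of that level, and at 70 to 90% these shares were 5.38 and 4.27%. The isolated regions in which both AOM/DSS samples lay below both control samples were 3259 or 26.9%, against 20.8% of all regions tested. Those in which both lay above numbered 1429 or 11.8%, against 14.8%. In the regions between, these shares were 24.5% below and 12.6% above. The median difference was -1.43 points over isolated, -1.08 points over the regions between and -0.264 points over all regions tested. A lower AOM/DSS mean was found in 61.9% of isolated regions and 59.7% of the regions between.

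The called region was chr10:17403808-17403883 (build mm9), with 4 CpGs and 181 to 284 calls per sample. Its level was 40.4 and 30.4% in AOM/DSS plus curcumin, 18.7 and 12.9% in AOM/DSS, and 47.1 and 57.6% in control samples. The 3 groups did not overlap, and AOM/DSS plus curcumin lay between the others. The region was picked for its AOM/DSS and control values, so its AOM/DSS plus curcumin levels are given for description only. It fell by 36.6 points in AOM/DSS relative to control samples (edgeR adjusted p = 0.0255). Over the edgeR and limma fits the adjusted p ran from 0.00152 with the replicate number as a block to 0.762 in limma, and Fisher's exact test, which takes no replicate error, gave 8.4e-27. The call did not stand when only the 4 samples compared were fitted (adjusted p = 0.143 in edgeR), with at least 50 calls per sample (adjusted p = 0.0539 in edgeR), in limma, or in 5 of the 6 fits that each left out 1 sample. Its nearest listed regions, 21917 bases after and 49745 bases before it, did not pass: they averaged 81.2 and 90.8% in AOM/DSS samples, against 86.7 and 91.8% in control samples.

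The other named regions are the 5 per direction with the smallest p among those at least 10 points apart without overlap, none of which passed the adjusted test. The second smallest p was at chr7:105549181-105549400, with 6 CpGs and 136 to 223 calls. It had 89.4 and 88.2% in AOM/DSS plus curcumin, 69.1 and 67.9% in AOM/DSS, and 91.9 and 90% in control samples. Here both AOM/DSS samples stood below the other 4, which lay close together (AOM/DSS minus control -22.5 points, edgeR adjusted p = 0.12). Its measured neighbour 22655 bases away stayed at 97.8 ± 3.07% in AOM/DSS and 96.1 ± 0.560% in control samples. The region chr3:31585419-31585481 had 70% and 56.5% with AOM/DSS plus curcumin, 30.6 and 33.3% with AOM/DSS, and 75.9 and 76.9% in control samples, from only 23 to 40 calls each. At chr3:20124272-20124576, with 14 CpGs, levels were 83.8 and 85.5%, 76.7 and 78.1%, and 93.3 and 93.6% in the same order of groups. The region chr7:46742873-46743111 was already sparse, with 9.91 and 4.80% in AOM/DSS plus curcumin, 1.59 and 2.86% in AOM/DSS, and 13.1 and 17.8% in control samples. These 4 were picked for low AOM/DSS values, so their AOM/DSS plus curcumin levels are given for description only.

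The 80 isolated regions that were higher in AOM/DSS samples at an unadjusted p under 0.05 and 10 points lay at all levels: 7 averaged under 10% over the 6 samples, 24 lay at 10 to 30%, 14 at 30 to 50%, 14 at 50 to 70%, 17 at 70 to 90% and 4 at 90% or more. The 5 with the smallest p follow. At chr6:52499908-52500066, with 8 CpGs, the level was 19.5 and 16.9% in AOM/DSS plus curcumin, 39.1 and 37.7% in AOM/DSS, and 25.9 and 8.94% in control samples. The region chr16:10502122-10502335 had 13.8 and 16.8%, 38.8 and 35.5%, and 17.3 and 17.9% in the same groups, so the AOM/DSS samples alone stood out. At chr10:58064349-58064577 the values were 7.94 and 7.89% with AOM/DSS plus curcumin, 25.6 and 37.8% with AOM/DSS, and 9.86 and 3.03% in control samples. The region chr3:103946495-103946553 had 0 methylated calls in both curcumin and both control samples, which allows a level of up to 3.16% in the curcumin and 2.40% in the control samples when the calls of a group are summed. Its AOM/DSS samples had 2.17 and 20.8%, so 1 library carried nearly all of the difference. The fifth, on chromosome 18, had 80.0 and 95.7% in AOM/DSS and 50% in both control samples from 20 to 43 calls each. The edgeR adjusted p of these 5 regions was between 0.532 and 0.625.

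The second comparison set AOM/DSS plus curcumin against AOM/DSS. The AOM/DSS samples serve in this comparison and in the first, so a low AOM/DSS value moves both differences in opposite directions, and their values are only placed side by side. Isolated regions averaged 59.2 ± 0.171% in AOM/DSS plus curcumin and 57.9 ± 0.467% in AOM/DSS samples (SD, n = 2 each), a difference of 1.26 points without overlap. Close regions differed by 0.303 points in the mean and by -0.611 points in the median, both without overlap. The mean was higher in AOM/DSS plus curcumin on all 19 autosomes, on 18 of them without overlap, by 0.736 points on chromosome 2 to 1.65 points on chromosome 1. The isolated-minus-close difference was 24.1 and 24.1 points in the curcumin samples, against 22.9 and 23.4 points in AOM/DSS samples. Its excess of 0.955 points was 0.757 points after weighting for CpG number and 0.380 points after weighting for CpG number and level class, without overlap in either case.

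By level, isolated regions at 50 to 70% averaged 61.6 and 61.2% in AOM/DSS plus curcumin, against 58.8 and 59.2% in AOM/DSS samples, a difference of 2.38 points. At 70 to 90% the difference was 2.34 points and at 90% or more 1.01 points, all 3 without overlap. Close regions differed by 1.44, 1.86 and 0.958 points in these 3 classes, also without overlap. Members below 10% went the other way, with 4.16 and 4.28% in AOM/DSS plus curcumin, against 4.495 and 5.655% in AOM/DSS samples, a difference of -0.852 points. At 10 to 30% and 30 to 50% the groups overlapped. The share of isolated regions at 90% or more was 19.98 and 19.83% in AOM/DSS plus curcumin, against 16.6 and 17.3% in AOM/DSS samples. By distance the difference in mean level was 1.15 points at 10000 to 20000 bases, 1.26 points at 20000 to 50000, 1.49 points at 50000 to 100000 and 1.83 points beyond 100000 bases. Short of the limit, the classes from 1000 to 10000 bases differed by 0.919, 0.931 and 0.863 points. Members of 3 CpGs differed by 1.66 points and those of 13 to 20 CpGs by 0.51 points. Close regions of these sizes differed by 0.747 and -0.083 points, the latter with overlap. The classes were the same as in the first comparison, and so were the AOM/DSS samples.

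No isolated region, and 0% of all regions tested, was called in this comparison by edgeR, and limma called 0. Fisher's exact test, which pools the calls of a group and so has no replicate error, called 158 isolated regions, or 1.30%, against 0.998% of all tested. At an unadjusted p under 0.05 alone edgeR gave 609 or 5.02% of isolated regions, below the 5.25% of all tested. At an unadjusted p under 0.05 and 10 points edgeR gave 346 or 2.85% of isolated regions, against 2% of all tested. The excess was thus there only with the minimum difference. Regions between the close and isolated distances reached 2.55%. Of the 346 isolated regions, 265 or 2.18% were higher in AOM/DSS plus curcumin, against 1.29% of all tested and 1.74% of the regions between. The other 81 or 0.668% were lower, against 0.706 and 0.809%. At equal level the shares in either direction were 3.64% of isolated and 3.63% of close regions at 70 to 90%. They were 0.525 and 0.284% below 10%, 3.70 and 3.47% at 10 to 30%, and 3.57 and 3.17% at 30 to 50%. At 50 to 70% they were 3.32 and 2.87%, and at 90% or more 1.74 and 0.952%. The groups did not overlap, with AOM/DSS plus curcumin higher, in 2772 or 22.9% of isolated regions, against 18.9% of all tested, and with it lower in 1606 or 13.2%, against 16%. In the regions between, these shares were 21.5% higher and 14.3% lower. The median difference was 0.927 points over isolated, 0.639 points over the regions between and 0.111 points over all regions tested.

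The smallest p for a higher level with curcumin was at chr17:12985330-12985458, with 6 CpGs. It had 17.5 and 9.41% in AOM/DSS plus curcumin, 0 of 73 and 0 of 72 calls methylated in AOM/DSS, which allows up to 2.07% over both samples, and 1.32 and 3.39% in control samples (edgeR adjusted p = 0.478 for AOM/DSS plus curcumin minus AOM/DSS). Here it was the curcumin samples that stood apart from the other groups. The chromosome 7 region described above came next (20.3 points, edgeR adjusted p = 0.575). The region chr11:32571658-32571750 had 70.5 and 80.2% with AOM/DSS plus curcumin, 48.2 and 45.03% with AOM/DSS, and 76.0 and 64.5% in control samples. At chr13:25439440-25439649 the curcumin samples, with 23.9 and 33.3%, lay above both AOM/DSS, with 4.94 and 9.46%, and control, with 16.1 and 15.0%. At chr9:70148904-70148991 they had 89.1 and 80.0%, against 44.3 and 49.2% in AOM/DSS samples, while the control samples differed widely at 95.5 and 60.6%.

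Lower levels with curcumin included 3 of the regions described as higher in AOM/DSS, on chromosomes 6, 10 and 16. They differed by -20.2, -23.8 and -21.9 points between AOM/DSS plus curcumin and AOM/DSS, and the AOM/DSS samples that had them picked above are the same. A further region, chr10:77788952-77789101, had 4.59 and 4.29% in AOM/DSS plus curcumin, 14.6 and 18.2% in AOM/DSS, and 10.5 and 9.68% in control samples. At chr3:146502208-146502306 the curcumin samples had 80.6 and 92.0%, the AOM/DSS samples 100 and 98.3%, and the control samples 98.5 and 100%. None passed, with edgeR adjusted p from 0.808 to 0.905 for these 5.

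The third comparison set AOM/DSS plus curcumin against control. Isolated regions averaged 59.2 ± 0.171% in AOM/DSS plus curcumin and 59.9 ± 0.111% in control samples (SD, n = 2 each). The difference was -0.725 points without overlap, against -0.328 points in close regions. All 19 autosomes were lower in AOM/DSS plus curcumin, 18 of them without overlap, by -0.959 points on chromosome 17 to -0.448 points on chromosome 1. By level the difference was -1.07 points at 30 to 50%, -1.24 points at 50 to 70%, -0.961 points at 70 to 90% and -0.203 points at 90% or more, without overlap, and the 2 classes below 30% overlapped. By distance it was -0.622 points at 10000 to 20000 bases and -1.28 points beyond 100000 bases. Short of the limit, the classes from 1000 to 10000 bases differed by -0.660, -0.625 and -0.736 points, so the first isolated class did not exceed them. The excess over close regions was -0.397 points as measured, and -0.254 points after weighting for CpG number, where the samples overlapped. Without control replicate 1 the measured excess was -0.151 points, and without control replicate 0 it was -0.642 points.

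No isolated region and 0% of all regions tested were called by edgeR, limma called 0 isolated regions, and Fisher's exact test called 44, or 0.363%, against 0.355% of all tested. An unadjusted p under 0.05 alone was reached by 431 or 3.55% of isolated regions in edgeR, below the 4.17% of all tested. At an unadjusted p under 0.05 and 10 points, 225 or 1.85% of isolated regions stood out in edgeR, against 1.46% of all tested. Regions between the close and isolated distances reached nearly the same share, at 1.81%, so the excess was not particular to isolated regions. Of the 225 isolated regions 75 were higher, 0.618% against 0.562% of all tested and 0.662% of the regions between. The other 150 were lower, 1.24% against 0.899 and 1.15%. At equal level the shares in either direction were 2.42% of isolated and 2.41% of close regions at 70 to 90%. They were 0.197 and 0.140% below 10%, 2.44 and 2.88% at 10 to 30%, and 2.75 and 2.72% at 30 to 50%. At 50 to 70% they were 2.49 and 2.35%, and at 90% or more 0.550 and 0.726%. The groups did not overlap in 1655 isolated regions that were higher, or 13.6% against 14.3% of all tested. They also did not overlap in 2424 that were lower, or 19.98% against 17.7%. In the regions between, these shares were 13.3 and 18.7%. Leaving out control replicate 0 raised the 225 to 338. The smallest p was at chr3:61962886-61963167, with 14 CpGs, 179359 bases or more from any listed region. It had 55.4 and 49.5% in AOM/DSS plus curcumin, 57.2 and 67.6% in AOM/DSS, and 81.1 and 91.6% in control samples, so both treated groups lay below the control samples (-33.9 points for AOM/DSS plus curcumin minus control, edgeR unadjusted p = 9.7e-06, adjusted p = 1). The region 318921 bases before it averaged 70.6 ± 11.8% in AOM/DSS plus curcumin and 67.1 ± 6.27% in control samples, which did not separate the groups.

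The other 4 lower regions of this comparison were chr2:135570920-135571097 with 20.5 and 31.7% in AOM/DSS plus curcumin, against 45.5 and 56.7% in control samples, and chr16:79059161-79059335 with 12.4 and 10.3%, against 26.8 and 26.98%. They also held chr9:59284578-59284654 with 88.2 and 85.9% in AOM/DSS plus curcumin, against 100 and 97.2% in control samples, and chr4:28413213-28413545 with 86.0 and 75.3%, against 96.9 and 95.8%. In the same order the AOM/DSS samples had 33.0 and 33.8%, 23.1 and 24.5%, 94.1 and 85.4%, and 84.4 and 93.3%. In all 4 they too lay below the control samples. The same control samples had these regions picked, so the AOM/DSS levels are given for description only. Among the higher ones, chr4:27831929-27831989 had 98.6 and 97.8% in AOM/DSS plus curcumin, against 87.3 and 85.5% in control samples. At chr15:88940756-88940877 the levels were 38.1 and 28.0% in AOM/DSS plus curcumin and 9.80 and 12.5% in control samples. At chr14:62453239-62453332 they were 86.4 and 90.9% in AOM/DSS plus curcumin and 78.9 and 64.6% in control samples. In these 3 the AOM/DSS means were 86.6, 11.9 and 71.8%, near the control samples. The curcumin replicates of chr9:122564860-122564931 were far apart, at 23.2 and 61.8%, against 5.08 and 20.9% in control samples, and the fifth was the chromosome 17 region given above.

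The farthest members showed how varied single isolated regions were. The most remote, chr2:100247245-100247413, had 1065242 bases to its nearest listed region, and read 54.8 and 66.7% in AOM/DSS plus curcumin, 73.0 and 56.1% in AOM/DSS, and 81.8 and 74.2% in control samples from 27 to 41 calls each. The next, chr3:43568213-43568389, had 70.9 and 78.3% in AOM/DSS plus curcumin, 65.3 and 68.9% in AOM/DSS, and 74.2 and 74.5% in control samples. In both the AOM/DSS samples lay below the control samples. The other 3 of the 5 most remote did not show this. The region chr13:87960569-87960962 averaged 39.5 ± 1.47% in AOM/DSS plus curcumin, 29.9 ± 6.38% in AOM/DSS and 26.2 ± 5.48% in control samples. The regions chr5:70618534-70618640 and chr10:64997385-64997710 overlapped between AOM/DSS and control samples.

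The 3 members with the most CpGs had low levels, below the averages of 40.9 to 41.3% given above for members of 21 or more CpGs. With 46 CpGs, chr6:137200927-137201419 had 6.49 and 10.1% in AOM/DSS plus curcumin, 11.2 and 6.31% in AOM/DSS, and 5.35 and 5.14% in control samples. With 45 CpGs, chr12:12268853-12269301 ranged from 0.345 to 1.84% over the 6 samples, and with 44, chr1:6372898-6373233 ranged from 0.321 to 1.88%. Just inside the distance limit were chr8:108109949-108110219 at 10004 bases, averaging 64.7% in AOM/DSS plus curcumin, 66.7% in AOM/DSS and 72.7% in control samples, and chr11:20653109-20653155 at 10005 bases, averaging 81.7, 80.5 and 70.7% in these groups. Just outside were chr4:102200100-102200183 at 9996 bases, averaging 0.794, 4.81 and 2.86%, and chr9:15054629-15055078 at 9995 bases, averaging 7.41, 7.24 and 9.43%.

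Successive isolated regions were nearly unrelated in level. Pairs were formed among the isolated regions alone, so other listed regions could lie between the members of a pair. Over 1720 pairs of consecutive isolated regions 10000 to 30000 bases apart, Pearson's r of the mean level was 0.111, and over 2183 pairs 300000 to 1000000 bases apart it was 0.033. Consecutive regions of any kind within 100 bases of each other had an r of 0.846 over 19065 pairs, and those 100 to 1000 bases apart 0.621 over 68544 pairs. Regions of any kind 1000 to 3000 bases apart had an r of 0.159 and those 3000 to 10000 bases apart 0.098, so low values were not particular to isolated regions. The AOM/DSS-minus-control differences of the nearer isolated pairs had an r of 0.031, against 0.180 for regions within 100 bases. For regions of any kind 1000 to 3000 and 3000 to 10000 bases apart this r was 0.047 and 0.028. These are descriptions across pairs that share the same 6 libraries, and within 100 bases also reads, so they carry no p.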

How the data were processed

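Colon epithelial DNA of 6 samples was bisulfite sequenced after capture with the Agilent SureSelectXT Mouse Methyl-Seq kit (per the labels' protocols). The tools, per the submitters' processing notes, were Bismark 0.15.0, ChIPseeker 1.10.3, and R 3.4.0, with build mm9. Their settings, how regions were drawn and whether duplicate reads were removed stayed unstated. Each deposited table holds counts: per region the number of CpGs, of methylation calls and of methylated calls, with at least 20 calls per value and other regions blank. Total calls per sample ran from 24682973 to 30727568. Calls of one read are not independent and carry no molecular identifiers, so limits for a count of 0 (3 calls) cover counting error only. The origin of the coordinates (0 or 1) was not stated, so a position can be wrong by 1 base. No gene annotation or genome of build mm9 was used, so regions are tied to no gene and shown without sequence.

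Regions were joined over the 6 files and distances taken edge to edge. Levels were averaged with equal weight per region (Python 3.11.15, pandas 2.3.3, numpy 2.4.6, scipy 1.17.1). Each region was tested with edgeR 4.0.16 in R 4.3.3 on methylated and unmethylated counts, with sample terms for coverage and group terms for methylation, a spread shared by all 6 samples, and Benjamini-Hochberg adjustment over 179922 regions, after a check on simulated data. Alternatives were limma 3.58.1 (log2 ratio of methylated to unmethylated calls, pseudocount 1), Fisher's exact test, other call minimums, distances and averages, a replicate block, and leaving out each sample. The named regions are those called, the 5 of smallest p per direction at least 10 points apart without overlap, the 5 most remote, the 3 with most CpGs and those at the distance limit. The members, classes and rules were chosen with earlier results of these data known.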

Additional observations from a re-analysis of the deposited data

How the results depend on the processing

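No difference of isolated regions, or of isolated minus close regions, changed sign under the alternatives run; the differences of close regions themselves turned with the median, to 0.445 points in AOM/DSS minus control and -0.611 in AOM/DSS plus curcumin minus AOM/DSS. In points, the AOM/DSS minus control difference of isolated regions was -1.54 where every sample had at least 100 calls, -1.54 with all calls pooled, -2.67 with no other region within 50000 bases and -3.85 for the median over regions. Leaving out 1 sample gave -2.31 to -1.65. AOM/DSS plus curcumin minus AOM/DSS was 0.896 with calls pooled, 1.61 at 50000 bases, 2.58 for the median and 0.927 to 1.59 without 1 sample. AOM/DSS plus curcumin minus control was -1.06 at 50000 bases, -1.27 for the median and -0.846 to -0.604 without 1 sample. For isolated minus close regions, the 50000 base limit gave -2.04 (AOM/DSS minus control), 1.31 (AOM/DSS plus curcumin minus AOM/DSS) and -0.731 (AOM/DSS plus curcumin minus control), and the median gave -4.29, 3.19 and -1.10. Weighting close regions by CpG number gave -1.01 for AOM/DSS minus control, and by CpG number and level class, chosen after seeing the data, -0.579 there and 0.380 for AOM/DSS plus curcumin minus AOM/DSS. Leaving out 1 sample gave -1.60 to -1.11, 0.727 to 1.18 and -0.642 to -0.151 in the 3 comparisons. The mean excess of isolated over close regions was 23.7 to 24.1 points without 1 sample, where 5 samples cannot pass by construction.

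In AOM/DSS minus control, isolated regions called numbered 0 with at least 50 calls, 0 in limma, 0 when only the 4 samples compared were fitted, 348 by Fisher's exact test (2.87% of members against 2.00% of all regions), and 0 to 1 without 1 sample; Fisher called 158 in AOM/DSS plus curcumin minus AOM/DSS (1.30% against 0.998%) and 44 in AOM/DSS plus curcumin minus control (0.363% against 0.355%). With the replicate number as a block, which the labels share across groups, 2 were called in AOM/DSS minus control (0.0165% against 0.0228% of all regions). The second was at chr7:105549181 (edgeR adjusted p = 0.0289). Between groups, the differences of same-numbered replicates had an r of 0.008 to 0.056 over single regions. Whether the number marks a batch is not stated in the labels and was not tested. Counts at an unadjusted p under 0.05, given for AOM/DSS minus control, AOM/DSS plus curcumin minus AOM/DSS and AOM/DSS plus curcumin minus control, were 306, 178 and 113 with at least 50 calls (4.04, 2.35 and 1.49% of members, against 2.502, 1.63 and 1.096% of all regions). They were 806, 609 and 431 with no minimum difference (6.64, 5.02 and 3.55%, against 6.34, 5.25 and 4.17%), and 129, 93 and 51 at 20 points (1.06, 0.767 and 0.420%, against 0.644, 0.392 and 0.311%). Fisher gave 1124, 877 and 638 (9.27, 7.23 and 5.26%, against 6.17, 4.84 and 3.87%). A 5000 base limit gave 849, 563 and 407 (4.006, 2.66 and 1.92%) and a 20000 base limit 250, 166 and 116 (4.26, 2.83 and 1.98%), against 2.82, 2.00 and 1.46% of all regions. Without 1 sample they ran from 453 to 572, 304 to 408 and 198 to 338, the last without control replicate 0. The causes were not tested. Single isolated regions rested on medians of 76 to 93 calls and 2 samples a group, and their replicates lay on average 5.87 to 6.08 points apart.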
